A study of Homo sapiens with 9 samples.

Results

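GAS5, SNHG1, SNHG5, SNHG6, SNHG7, SNHG8, SNHG12, SNHG15, SNHG16 and ZFAS1 are long noncoding genes whose introns carry small nucleolar RNAs (snoRNAs). They were chosen by name as host genes of the TOP class, and each of the 10 names was found on a row of the deposited table, among 27671 genes. All 10 passed the filter on low counts that left 15551 genes for testing. RNA sequencing measured them in A498 cells, a cancer line derived from a clear cell renal cell carcinoma (ccRCC). Lentivirus delivered to them a control short hairpin RNA (group shControl), a hairpin targeting BMAL1 (group shBMAL1) or a hairpin targeting ARNT (group shARNT). Every group, the controls included, had been infected with a pLKO.1 virus and selected with puromycin, and each of the 3 groups held 3 biological replicates. The labels give the target and not the hairpin. The methods list a BMAL1 hairpin and an independent BMAL1 hairpin, and which of them was used here is not stated. BMAL1 pairs with CLOCK to drive circadian transcription, and ARNT pairs with HIF1α and HIF2α in the response to low oxygen. The study asked how far both share the control of genes that depend on HIF2α.

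In a snoRNA host gene the exons are spliced into a host RNA while each snoRNA is trimmed out of the intron that holds it. Box C/D snoRNAs guide the methylation of ribosomal RNA and box H/ACA snoRNAs guide its pseudouridylation, so the genes supply part of the machinery that makes ribosomes. The spliced host RNAs hold only short open reading frames, and many are destroyed by nonsense-mediated decay once a ribosome has read them. Many of these genes start transcription at a C followed by a run of pyrimidines. This terminal oligopyrimidine (TOP) start is shared with the mRNAs of ribosomal proteins and translation elongation factors, whose translation follows growth signals through mTORC1.

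The sequences around the annotated starts are shown because they are what places a gene in this class. RefSeq windows (GRCh38.p14) were found for 8 of the 10 genes, with no entry used for SNHG6 and SNHG15. Each line runs from 10 bases before the start to 20 bases from it, on the strand of the gene, and capitals mark a C followed by at least 4 pyrimidines where such a run began within 10 bases of the start.
GAS5: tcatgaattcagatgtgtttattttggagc
SNHG1: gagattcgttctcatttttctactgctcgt
SNHG5: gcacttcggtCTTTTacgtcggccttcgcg
SNHG7: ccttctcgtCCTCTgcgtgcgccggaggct
SNHG8: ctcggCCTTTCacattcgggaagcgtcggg
SNHG12: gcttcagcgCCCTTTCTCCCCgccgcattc
SNHG16: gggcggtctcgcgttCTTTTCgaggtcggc
ZFAS1: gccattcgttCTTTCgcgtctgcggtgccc

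These windows lie at chr1:173869026-173869055 on the minus strand (GAS5), chr11:62855866-62855895 on the minus strand (SNHG1), chr6:85678714-85678743 on the minus strand (SNHG5), chr9:136728165-136728194 on the minus strand (SNHG7), chr4:118278752-118278781 on the plus strand (SNHG8), chr1:28581854-28581883 on the minus strand (SNHG12), chr17:76557754-76557783 on the plus strand (SNHG16) and chr20:49278632-49278661 on the plus strand (ZFAS1). The annotated first base was a C in 6 of 8 (75%), against 66.7% of 78 ribosomal protein promoters and 14.7% of all 35116 promoters. A run within 10 bases of the start was present in 6 of 8 (75%), against 82.1% of ribosomal protein promoters and 31.4% of all. A C at the first base itself, followed directly by at least 4 pyrimidines, was present in 3 of 8 (37.5%), in SNHG5, SNHG12 and ZFAS1, against 60.3% and 4.07%. GAS5 and SNHG1 had no such run in this window. This holds for the RefSeq start used here, and another start of the same gene could differ. The RefSeq starts were not matched to the GENCODE starts used for neighbours below, so the missing run does not place GAS5 or SNHG1 outside the class. In the longer RefSeq windows, from 250 bases before the start to 50 after it, the E-box CACGTG bound by CLOCK and BMAL1 was searched on both strands and was found in SNHG7 alone (12.5% of 8 genes, against 7.26% of all promoters). The cores of the hypoxia response element, ACGTG or GCGTG on either strand, were found in 6 of 8 (75%), against 71.8% of ribosomal protein promoters and 48.4% of all. CACGTG contains ACGTG, so the counts overlap, and a match describes letters and not a bound site.

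On GRCh37 the GENCODE annotation places SNHG12 and GAS5 on chromosome 1, SNHG8 on chromosome 4, SNHG5 on chromosome 6, SNHG15 on chromosome 7, SNHG6 on chromosome 8, SNHG7 on chromosome 9, SNHG1 on chromosome 11, SNHG16 on chromosome 17 and ZFAS1 on chromosome 20. No pair of them shares a locus. Their canonical transcripts have from 3 exons, as in SNHG6, SNHG8 and SNHG15, to 12 exons, as in GAS5. The gene models used for counting were not stated, so changes were read between groups. Where counts of different genes stand side by side, as for snoRNA rows and their hosts, they are not levels corrected for gene length.

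The 9 libraries held from 35269857 to 36099083 counts. CPM stands for counts scaled to library size after correction by the trimmed mean of M values (TMM), and an SD is over the 3 libraries of a group. A gene was called when its adjusted p was under 0.1 in the edgeR quasi-likelihood test. ARNT fell from 50.5 to 9.47 CPM in shARNT, and BMAL1, listed as ARNTL, fell from 16.3 to 5.02 CPM in shBMAL1. The other partner moved as well, since ARNT stood at 32.3 CPM in shBMAL1 (log2 fold change -0.65, adjusted p = 1.55e-08) and ARNTL at 23.85 CPM in shARNT (0.55, adjusted p = 8.29e-06). All 8 markers of renal epithelium and ccRCC stood at 1 CPM or more in every group, with a summed level of 8197 to 8221 CPM in shControl, but 6146 to 6576 CPM after BMAL1 depletion and 2187 to 2353 CPM after ARNT depletion. VIM carried most of the shControl sum, at 5974 CPM, and stood at 812 CPM in shARNT. Of the 8 markers 6 were lower and 1 was higher in shARNT, and 6 were lower and 2 higher in shBMAL1. CA9 had log2 fold changes of -6.17 in shARNT and -1.34 in shBMAL1. For EPAS1, the gene of HIF2α, the values were -2.22 and -0.57. PAX8 rose in shARNT from 36.0 to 100.3 CPM, and KRT18 was not called there (565.7 and 563.0 CPM). NNMT rose in shBMAL1 from 103.5 to 188.3 CPM, but its log2 fold change in shARNT was -0.61. None of 3 endothelial markers reached 1 CPM. Of 3 immune markers CD68 alone did, with CD3E at 0, and the summed level was 1786 to 1905 CPM in shControl, with 1753 to 1865 CPM after BMAL1 depletion and 135.5 to 148.4 CPM after ARNT depletion. Of 3 fibroblast markers, COL1A1 and PDGFRB reached 1 CPM in shControl and COL1A1 alone in the depletions, and the summed level of 231.2 to 244.8 CPM in shControl compared with 34.2 to 37.3 CPM after BMAL1 depletion and 40.7 to 50.7 CPM after ARNT depletion. All libraries came from the cultured A498 line, so these markers describe RNA of that line and not a mix of tissue cell types. Bulk RNA cannot tell whether all cells of a culture shifted or only some. The part of these shifts in the results was not tested.

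In shARNT most of the host RNAs were lower than in shControl, SNHG16 was higher and SNHG1 was not distinguished. Of the 10 genes 9 were called, which is close to the 81.8% of all genes called in this contrast. They were 8 lower, against 41.3% of all genes, and 1 higher, against 40.5%. Scaling by library size alone gave 7 lower and 2 higher (SNHG7 then had a log2 fold change of 0.06 and was not called, and SNHG1 was called at 0.23), and turned the 6305 higher and 6418 lower calls over all genes into 7828 higher and 5111 lower. That scaling moved the median of all genes from -0.01 to 0.23, so changes are given relative to the TMM scale. A change of 1.5-fold or more was called for 8 host genes, against 53.4% of all genes, and 7 of these were lower, against 28.9%. The median log2 fold change of the 10 was -0.83, against -0.01 over all genes. The CPM of the 3 shARNT libraries lay below all 3 shControl libraries for 7 genes (40.2% of all genes did so) and above them for SNHG16 (39.5%).

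In shBMAL1 the shifts were smaller. Of the 10 genes 7 were called, against 63.4% of all genes, and all 7 were lower, against 31.5%, while 0 were higher, against 31.9%. In edgeR 0 were also higher at an unadjusted p under 0.05, and by DESeq2 0 were called higher. At 1.5-fold or more 2 genes were called, SNHG12 and SNHG7, against 23.5% of all genes in either direction and 12.4% lower. The median log2 fold change of the 10 was -0.28, against -0.00 over all genes. For the 7 called genes the shBMAL1 libraries lay below all shControl libraries, which held for 30.8% of all genes. Library size alone kept 7 lower and added SNHG16 as 1 higher (0.09, adjusted p = 0.0871). The 3 control libraries are shared by both comparisons. SNHG5, SNHG6, SNHG7, SNHG8, SNHG12, SNHG15 and ZFAS1 were lower in both, as were 18% of all genes, although SNHG7 in shARNT did not keep its direction under library size alone.

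**Figure D1:**
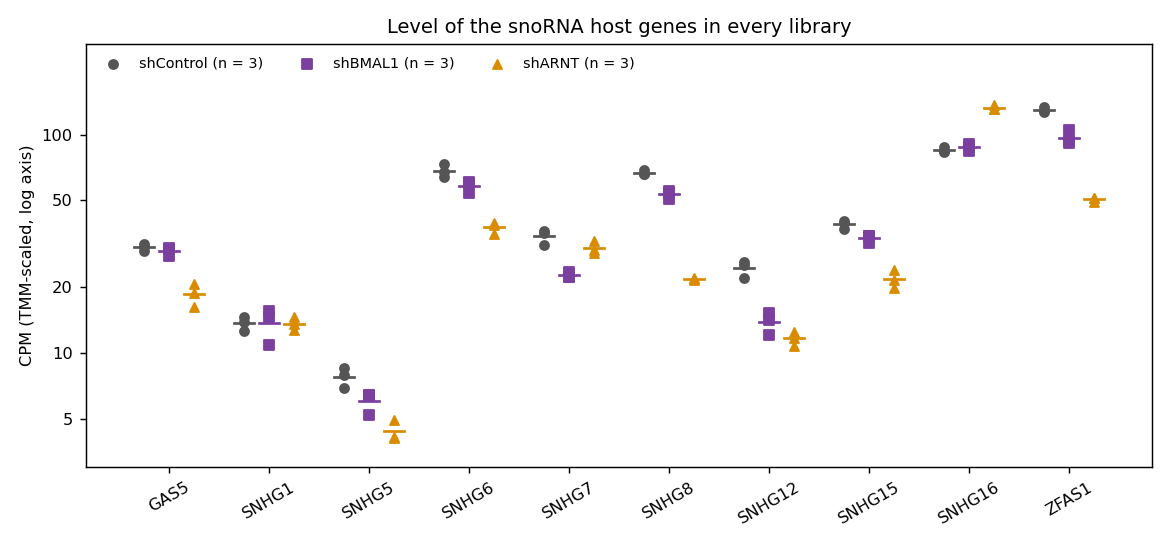
Level of each host gene in CPM on a log axis, with 1 point for each of the 9 libraries and a bar at the group mean (n = 3). SNHG8 and ZFAS1 form 3 separate steps, with shControl highest and shARNT lowest. SNHG16 is the gene whose shARNT libraries lie above all others, and the groups of SNHG1 overlap.

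The genes that host box C/D snoRNAs alone were GAS5, SNHG1, SNHG5, SNHG6, SNHG16 and ZFAS1. ZFAS1, a host of 3 snoRNAs that starts head to head with the coding gene ZNFX1, stood at 133.1, 126.6 and 127.7 CPM in shControl, 93.6, 104.8 and 91.4 CPM in shBMAL1, and 51.4, 51.0 and 49.0 CPM in shARNT. The 3 groups did not overlap. The mean fell from 129.1 ± 3.48 CPM (SD, n = 3) to 96.6 ± 7.17 CPM in shBMAL1, a log2 fold change of -0.42 (SE 0.051 and adjusted p = 5.89e-07). It fell to 50.5 ± 1.28 CPM in shARNT, or 39.1% of the control level, a log2 fold change of -1.36 (SE 0.052 and adjusted p = 2.89e-15). Between the depletions the direct difference, shARNT minus shBMAL1, was -0.94 (adjusted p = 1.27e-12).

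GAS5 was named for its accumulation in growth-arrested cells, and its introns hold 10 of the snoRNAs considered here. Its level was 30.7, 31.6 and 29.2 CPM in shControl, 29.9, 30.1 and 27.9 CPM in shBMAL1, and 20.7, 18.8 and 16.3 CPM in shARNT. The shARNT libraries were the 3 lowest, and the other 6 overlapped. GAS5 fell by 0.71 log2 units in shARNT (SE 0.076 and adjusted p = 3.86e-08), to 61.0% of the control level. In shBMAL1 its log2 fold change was -0.06 (adjusted p = 0.526), with a 95% confidence interval from -0.21 to 0.10. The depletions differed by -0.66 (adjusted p = 1.38e-07).

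SNHG5 and SNHG6 carry 2 and 1 of the box C/D snoRNAs. SNHG5 had the fewest counts of the 10 genes, from 161 to 281 per library. It stood at 7.96, 8.54 and 6.87 CPM in shControl, 5.18, 6.39 and 6.41 CPM in shBMAL1, and 4.95, 4.07 and 4.11 CPM in shARNT. The groups were again 3 separate steps, with narrow gaps. Its log2 fold change was -0.83 (SE 0.131 and adjusted p = 8.63e-06) in shARNT, -0.38 (SE 0.129 and adjusted p = 0.0167) in shBMAL1 and -0.45 (adjusted p = 0.00449) between the depletions. SNHG6 stood at 73.4, 67.3 and 63.9 CPM in shControl, 54.0, 60.3 and 60.8 CPM in shBMAL1, and 39.2, 34.9 and 38.6 CPM in shARNT. Its libraries fell in the same order, without overlap between groups. It fell by 0.86 log2 units in shARNT (SE 0.064 and adjusted p = 1.29e-10) and by 0.23 in shBMAL1 (SE 0.063 and adjusted p = 0.00439), and the depletions differed by -0.64 (adjusted p = 1.63e-08).

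SNHG16, with 3 snoRNAs of the SNORD1 family, moved in the other direction. Its level was 87.7, 83.0 and 83.8 CPM in shControl, 84.3, 90.5 and 88.1 CPM in shBMAL1, and 136.7, 131.3 and 130.7 CPM in shARNT. The shControl and shBMAL1 libraries overlapped and all shARNT libraries lay above them. SNHG16 rose by 0.65 log2 units in shARNT (SE 0.044 and adjusted p = 3.3e-11), to 156.7% of the control level, and exceeded shBMAL1 by 0.60 (adjusted p = 1.12e-10). In shBMAL1 the log2 fold change was 0.05 (adjusted p = 0.381), with a 95% confidence interval from -0.05 to 0.14.

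SNHG1, the host of 8 snoRNAs from SNORD22 to SNORD31, was not called in any contrast. It stood at 12.6, 14.6 and 13.8 CPM in shControl, 14.6, 15.5 and 10.9 CPM in shBMAL1, and 13.5, 14.6 and 12.7 CPM in shARNT. The group means were 13.7, 13.7 and 13.6 CPM, and the shBMAL1 group had the widest spread, with an SD of 2.47 CPM set by replicate 3. The 95% confidence interval of the log2 fold change ran from -0.24 to 0.22 in shARNT and from -0.23 to 0.23 in shBMAL1. Under library size alone SNHG1 was 0.23 higher in shARNT (adjusted p = 0.0622), a shift of the size seen in the median of all genes.

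The genes that host box H/ACA snoRNAs alone were SNHG7, SNHG8 and SNHG15. SNHG8, the host of SNORA24, showed the largest fall of the 10 genes in shARNT, subject to its overlap with PRSS12 described below. It stood at 68.5, 65.9 and 65.8 CPM in shControl, 50.6, 54.2 and 55.0 CPM in shBMAL1, and 21.7, 21.9 and 21.6 CPM in shARNT. The groups did not overlap. Its level fell from 66.7 ± 1.52 to 21.8 ± 0.176 CPM in shARNT, or 32.6% of the control level, a log2 fold change of -1.62 (SE 0.054 and adjusted p = 2.64e-16). In shBMAL1 79.8% of the control level remained (log2 fold change -0.33, SE 0.051, adjusted p = 1.51e-05), and the depletions differed by -1.29 (adjusted p = 1.12e-14).

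SNHG15, the host of SNORA9, stood at 40.1, 39.3 and 37.0 CPM in shControl, 32.0, 34.2 and 34.4 CPM in shBMAL1, and 19.8, 21.5 and 24.1 CPM in shARNT. The libraries formed 3 separate steps. Its log2 fold change was -0.83 (SE 0.069 and adjusted p = 7.78e-10) in shARNT and -0.21 (SE 0.067 and adjusted p = 0.0116) in shBMAL1, and the depletions differed by -0.62 (adjusted p = 7.55e-08).

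SNHG7, the host of SNORA17 and SNORA43, had the reverse order of the depletions. It stood at 31.2, 36.0 and 35.5 CPM in shControl, 22.2, 22.3 and 23.6 CPM in shBMAL1, and 32.5, 28.6 and 29.6 CPM in shARNT. The shBMAL1 libraries were the 3 lowest, and shARNT overlapped shControl. SNHG7 fell by 0.59 log2 units in shBMAL1 (SE 0.070 and adjusted p = 4.24e-07), to 66.3% of the control level. In shARNT it was called at -0.18 (SE 0.068 and adjusted p = 0.0215), but not without shARNT replicate 2 (-0.14, adjusted p = 0.11) and not under library size alone, where the value was 0.06 (adjusted p = 0.427). Against shBMAL1 the shARNT level was higher by 0.41 (adjusted p = 1.89e-05).

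SNHG12 hosts 3 box H/ACA snoRNAs and a box C/D snoRNA, and it was the gene with the largest fall in shBMAL1. Its level was 22.1, 26.03 and 25.2 CPM in shControl, 15.2, 14.2 and 12.1 CPM in shBMAL1, and 12.5, 11.7 and 10.8 CPM in shARNT. Both depletions lay below all controls and overlapped each other. The log2 fold change was -0.82 (SE 0.092 and adjusted p = 2.26e-07) in shBMAL1, which left 56.6% of the control level, and -1.07 (SE 0.093 and adjusted p = 1.59e-09) in shARNT, which left 47.7%. The difference between the depletions, -0.25 (SE 0.096 and adjusted p = 0.0251), lost its call without shBMAL1 replicate 1 (-0.17, adjusted p = 0.137), without shARNT replicate 3 (-0.19, adjusted p = 0.105) and under library size alone (-0.06, adjusted p = 0.606).

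**Figure D2:**
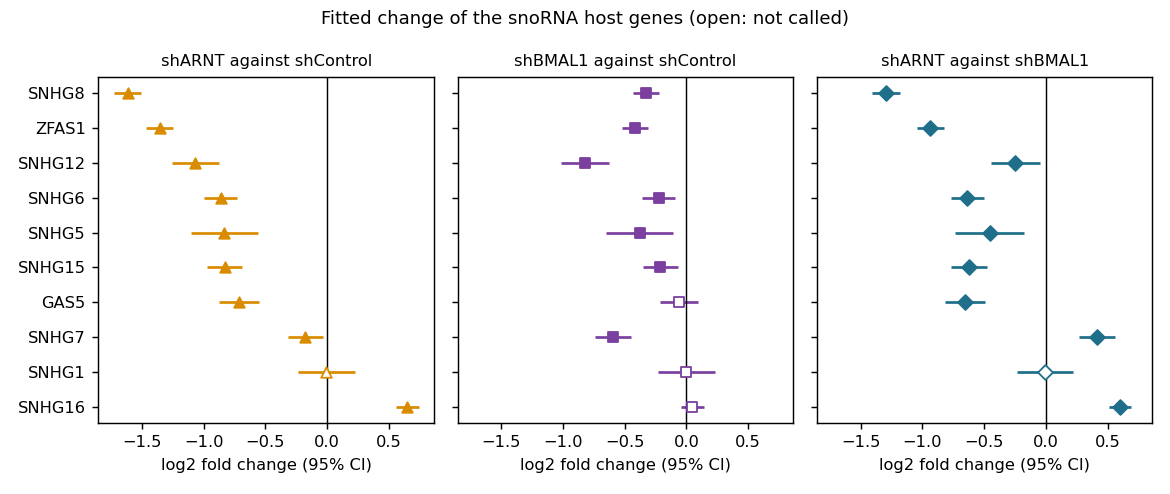
Log2 fold change of each host gene with its 95% confidence interval in the 3 contrasts, on the TMM scale, with open symbols for genes not called at an adjusted p under 0.1. In shARNT against shControl the values run from -1.62 (SNHG8) to 0.65 (SNHG16), and in shBMAL1 against shControl from -0.82 (SNHG12) to 0.05 (SNHG16). The call of SNHG7 in the first panel and that of SNHG12 in the last were lost under library size alone, which also took SNHG7 to 0.06.

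The direct contrast compares the depleted groups with each other, with the control libraries entering only the shared estimate of spread and the scaling. In it 9 of the 10 genes were called, against 81.2% of all genes. In shARNT 7 were lower than in shBMAL1, against 41.1% of all genes, and SNHG7 and SNHG16 were higher, against 40.1%. At 1.5-fold or more 6 were called, 5 of them lower, against 52.6% and 28.4% of all genes. The libraries did not overlap for 6 lower and 2 higher genes, against 40.3% and 39.4% of all genes. The median of the 10 was -0.54, against -0.01 over all genes. SNHG5, SNHG6, SNHG8, SNHG12, SNHG15 and ZFAS1 were lower in each depletion than in shControl and lower in shARNT than in shBMAL1, a pattern held by 11% of all genes, with the call of SNHG12 in the direct contrast subject to the limits above.

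The table also holds rows for 35 snoRNAs that RefSeq places inside these 10 genes. A library of polyadenylated RNA is not made to catch mature snoRNAs, and whether these reads came from snoRNAs, from unspliced host RNA or from reads also counted on the host row was not tested. Counts were low. SNORA17 and SNORA43 in SNHG7 and SNORA9 in SNHG15 were at 0 in all 9 libraries, and 12 of the 35 rows passed the filter.

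Of these 12 rows, few were called. SNORD76, a box C/D snoRNA of GAS5, had 14, 16 and 26 counts in shControl, 21, 18 and 20 in shBMAL1, and 29, 56 and 34 in shARNT. It was higher in shARNT than in shControl, with a log2 fold change of 0.82 (adjusted p = 0.0357), while its host fell. On the CPM scale the groups overlapped, since the lowest shARNT library stood at 0.732 CPM and the highest shControl library at 0.787 CPM. SNORA44, a box H/ACA snoRNA of SNHG12, had 12, 24 and 20 counts in shControl, 14, 11 and 14 in shBMAL1, and 6, 10 and 4 in shARNT. It fell by 1.73 log2 units in shARNT (adjusted p = 0.00189), as its host did. SNORA61, also of SNHG12, was called lower in shBMAL1 (-0.78, adjusted p = 0.074), with 34, 16 and 13 counts against 26, 46 and 33 in shControl. The groups of SNORA61 overlapped.

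Summed over the rows within a host, the counts did not follow the host row in every gene. For GAS5 the 10 rows summed to 117, 159 and 146 counts in shControl, 144, 141 and 123 in shBMAL1, and 166, 179 and 150 in shARNT. Per 100 counts on the GAS5 row this made 11.5 to 15.3 for shControl and 13.0 to 14.1 for shBMAL1. It made 20.3 to 24.03 for shARNT, where all 3 libraries lay above the other 6. On the TMM scale the summed level of the 10 rows was 4.26 ± 0.673 CPM in shControl, 3.97 ± 0.315 CPM in shBMAL1 and 4.17 ± 0.373 CPM in shARNT, so it showed no rise beyond the spread. For SNHG1 the 8 rows summed to 46, 36 and 45 counts in shControl, 44, 38 and 31 in shBMAL1, and 73, 63 and 64 in shARNT. The shARNT libraries were the 3 highest, while the SNHG1 row itself was not called in any contrast. Their summed level was 1.28 ± 0.161, 1.10 ± 0.188 and 1.68 ± 0.139 CPM in the same order of groups. For SNHG12 the 4 rows summed to 233 counts over the shControl libraries, 142 over shBMAL1 and 160 over shARNT, which is 9.61, 10.0 and 11.5 per 100 counts of the host and 2.35, 1.38 and 1.35 CPM. The 3 rows within SNHG16 summed to 1, 2 and 3 counts in shControl, 6, 4 and 2 in shBMAL1, and 15, 17 and 16 in shARNT, where the host row was higher as well. These sums were not part of the fit and carry no test.

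**Figure D3:**
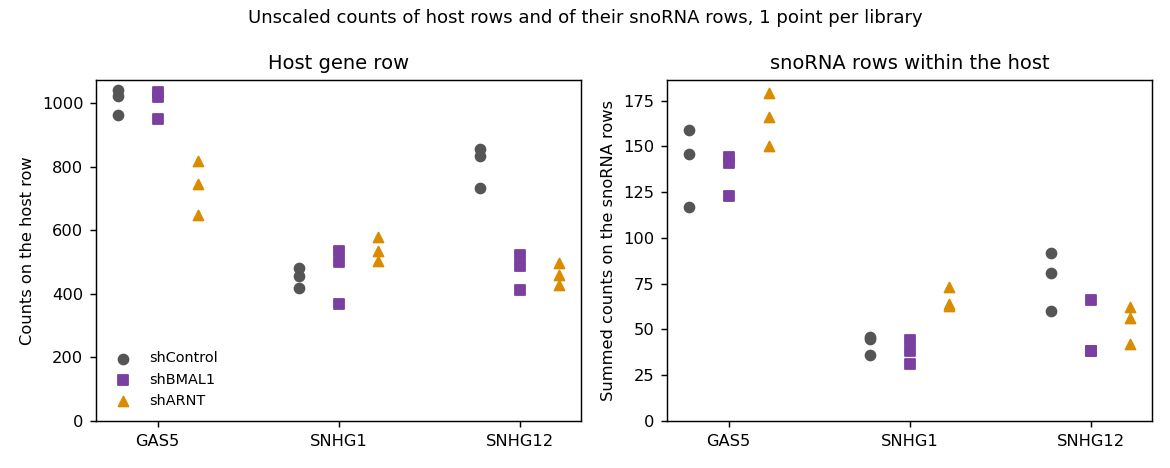
Unscaled counts on the host row (left) and summed over the snoRNA rows within the host (right) for GAS5, SNHG1 and SNHG12, with 1 point per library. The GAS5 host row is lowest in shARNT, at 647 to 819 counts, whereas its snoRNA rows sum to 150 to 179 counts there, against 117 to 159 in shControl. Scaled to library size by TMM these sums are 4.17 and 4.26 CPM, so the snoRNA rows of GAS5 did not rise on that scale.

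Neighbours on the other strand were examined because the use of strand in counting was not stated, so reads from overlapping genes cannot be told apart. SNHG8 overlaps 2487 exon bases of PRSS12, which encodes a secreted serine protease. The SNHG8 row had 2280, 2170 and 2174 counts in shControl, 1729, 1868 and 1869 in shBMAL1, and 861, 868 and 857 in shARNT. PRSS12 had similar counts, with 2291, 2326 and 2454 in shControl, 1617, 1581 and 1586 in shBMAL1, and 751, 783 and 765 in shARNT. Its log2 fold changes were -1.88 in shARNT and -0.61 in shBMAL1, and the values of SNHG8 are uncertain to that extent. SNHG6 overlaps 1488 exon bases of MCMDC2, which had only 14 to 61 counts per library and a log2 fold change of -1.83 in shARNT. SNHG12 overlaps 8 exon bases of TRNAU1AP, with log2 fold changes of -0.06 (adjusted p = 0.406) in shARNT and -0.35 in shBMAL1. SNHG7 overlaps 539 exon bases of DIPK1B, which was not matched to a row of the table.

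Among genes that start head to head with a host gene, ZNFX1 begins 585 bases from ZFAS1 and ZBTB37 begins 391 bases from GAS5. These distances are between GENCODE canonical starts and not the RefSeq starts of the windows above. ZNFX1 stood at 125.4 ± 6.49 CPM in shControl, 119.3 ± 1.92 CPM in shBMAL1 and 138.9 ± 3.71 CPM in shARNT. The shARNT value was 0.15 log2 units above the control (adjusted p = 0.00484), opposite in sign to that of ZFAS1. ZBTB37, a zinc finger gene, stood at 1.60 ± 0.192 CPM in shControl, 2.46 ± 0.484 CPM in shBMAL1 and 6.01 ± 0.992 CPM in shARNT. It rose by 1.90 log2 units in shARNT (adjusted p = 8.17e-09) and by 0.62 in shBMAL1 (adjusted p = 0.0121), where GAS5 did not rise.

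The other noncoding hosts gave a more mixed picture. Of 20 listed genes, 12 were matched to the table and 11 were tested, since MEG8 was at 0 in every library. In shARNT 6 were lower, 3 were higher and 2 were not called, with a median log2 fold change of -0.24 that came to -0.00 under library size alone, where 4 were lower and 3 higher. The same scaling took the median of the 10 host genes in shARNT to -0.59. In shBMAL1 4 were lower and 1 was higher, with a median of 0.04. SNHG29, listed as C17orf76-AS1, fell from 638.3 CPM in shControl, with 490.8 CPM left in shBMAL1 (log2 fold change -0.38) and 244.6 CPM left in shARNT (-1.38). SNHG18 fell by 0.72 and 1.74 log2 units. SNHG17 and SNHG10 rose in shARNT, by 0.58 and 0.86, and their values in shBMAL1 of 0.05 and 0.16 were not called. DANCR, best known as a noncoding RNA that restrains differentiation, rose in both, by 0.33 in shARNT and 0.43 in shBMAL1.

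The cytosolic ribosomal protein genes are the core of the TOP class. Of 79 listed and tested, 76 were lower and 1 was higher in shARNT, with a median log2 fold change of -0.88, and 71 were lower and none was higher in shBMAL1, with a median of -0.30 (in edgeR 0 were higher at an unadjusted p under 0.05, and by DESeq2 68 were lower and 0 higher). Between the depletions 70 were lower and 6 higher in shARNT, with a median of -0.57. These medians lie beside -0.83, -0.28 and -0.54 for the 10 noncoding hosts. Under library size alone the ribosomal protein counts were 71 lower and 4 higher in shARNT and 63 lower in shBMAL1. RPS4X fell from 2593 to 752.8 CPM in shARNT and RPLP0 from 968.3 to 318.4 CPM. RPS16 and RPL27A fell more in shBMAL1, by 1.13 and 1.12 log2 units, than in shARNT, by 0.33 and 0.65, and the direct contrast gave 0.81 and 0.47. RPS28 was the gene called higher in shARNT, at 1.13 CPM against 0.653 CPM (adjusted p = 0.0868), but its libraries overlapped and by DESeq2 76 genes of the list were lower and 0 higher. Ribosomal protein genes have many near-identical pseudogenes, and how the authors assigned reads with several alignments was not stated, so these levels are uncertain.

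The ribosomal protein genes were also split by whether they host a snoRNA. The 29 hosts had 29 lower in shARNT (median -0.81) and 27 lower in shBMAL1 (median -0.38). The 50 genes not on the host list had 47 lower and 1 higher in shARNT (median -0.89) and 44 lower in shBMAL1 (median -0.25). The 19 protein-coding hosts that are not ribosomal protein genes had 12 higher and 6 lower in shARNT (median 0.37), and in shBMAL1 5 were higher and 10 lower (median -0.23). No test of a difference between the lists was made. Among the 19, TCP1, a subunit of the chaperonin TRiC, rose by 0.91 log2 units in shARNT, and EEF2, an elongation factor that is also a TOP mRNA, fell by 1.27. EIF4A2, an RNA helicase of translation initiation, fell by 0.91 in shARNT and by 0.93 in shBMAL1, and the difference of 0.01 between the depletions was not called.

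Of 18 other TOP mRNAs, 15 were lower and 3 higher in shARNT (median -0.64; 12 lower and 5 higher under library size alone), and 13 were lower and 2 higher in shBMAL1 (median -0.28; 13 lower and 5 higher under library size alone). EEF1A1, which delivers aminoacyl-tRNA to the ribosome, fell by 1.01 in shARNT and by 1.66 in shBMAL1, from 2727 to 1353 and 863.9 CPM. EEF1G fell by 1.40 and by 0.24. NPM1, a nucleolar chaperone, and EIF3H, an initiation factor subunit, rose in both depletions, by 0.23 and 0.26 in shARNT and by 0.26 and 0.12 in shBMAL1.

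**Figure D4:**
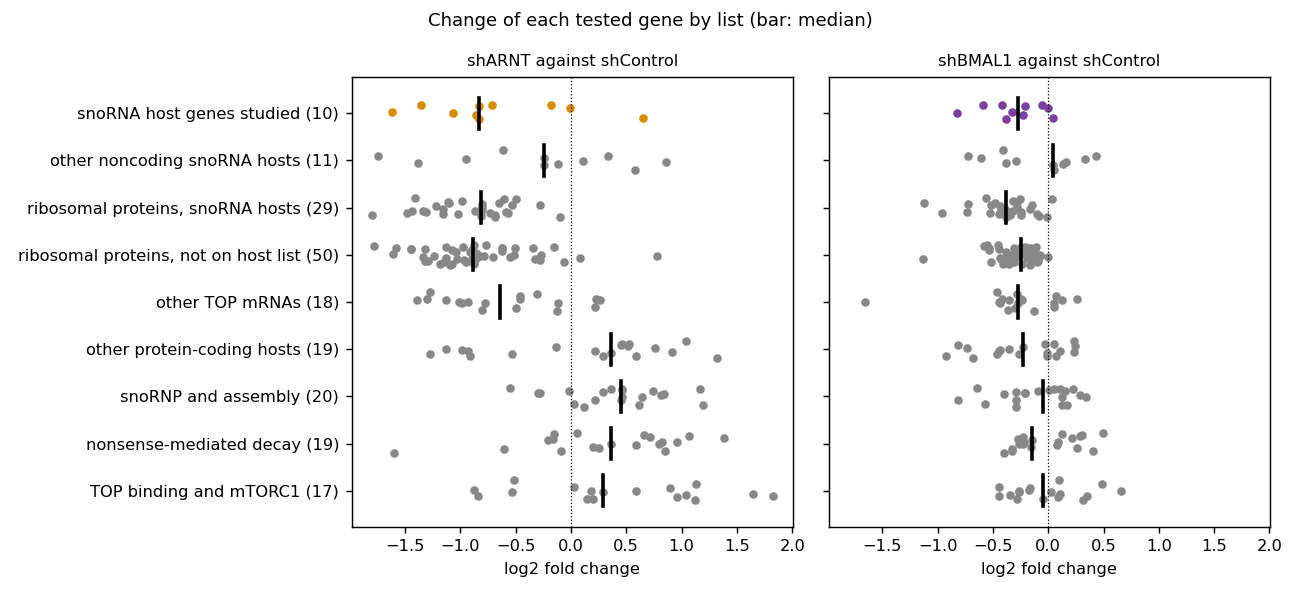
Log2 fold change of each tested gene by list, with a bar at the median of the list, in shARNT (left) and shBMAL1 (right) against shControl on the TMM scale. The medians of the 10 host genes (-0.83 and -0.28) lie near those of the 50 ribosomal protein genes not on the host list (-0.89 and -0.25). The median of the other noncoding hosts is -0.24 in shARNT. Library size alone moves all of these upward, to -0.59 and -0.23 for the 10 host genes and to -0.65 and -0.20 for the 50. It moves the other noncoding hosts in shARNT to -0.00.

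The proteins that build snoRNPs, the particles in which snoRNAs act, were mostly higher in shARNT. Of 20 such genes, 15 were higher and 3 lower in shARNT (median 0.45), and 6 were higher and 9 lower in shBMAL1 (median -0.04, which was 0.00 under library size alone). RUVBL2 and PIH1D1, members of the R2TP chaperone complex that assembles snoRNPs, rose by 1.19 and 1.17 log2 units in shARNT. FBL, the methyltransferase of box C/D particles, fell by 0.55 in shARNT and by 0.65 in shBMAL1. DKC1, the pseudouridine synthase of box H/ACA particles, rose by 0.45 in shARNT and fell by 0.82 in shBMAL1. The difference for DKC1 between the depletions was 1.27 (adjusted p = 1.3e-13).

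Of 19 factors of nonsense-mediated decay, 12 were higher and 4 lower in shARNT (median 0.36), and 6 were higher and 9 lower in shBMAL1 (median -0.15). UPF1, the central helicase of this pathway, rose from 87.3 to 183.4 CPM in shARNT and to 106.6 CPM in shBMAL1. SMG6, the endonuclease, fell by 0.60 log2 units in shARNT and by 0.33 in shBMAL1.

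Of 17 proteins that bind TOP mRNAs or belong to mTORC1 signalling, 12 were higher and 4 lower in shARNT (median 0.29), and 5 were higher and 8 lower in shBMAL1 (median -0.05, which was -0.00 under library size alone). RPS6KB1, the S6 kinase, rose from 25.1 to 88.8 CPM in shARNT, and TSC1, which restrains mTORC1, rose from 30.3 to 94.8 CPM. EIF4EBP1, a translation repressor that mTORC1 inactivates, fell by 0.88 in shARNT and by 0.17 in shBMAL1. These are transcript levels, and phosphorylation was not measured here.

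The genes whose profile over the 9 libraries was nearest to the mean profile of the 10 hosts were ACADVL, RPS20 and ALDOA, at root-mean-square distances of 0.0324, 0.0336 and 0.0381 on the centred log2 CPM scale, against a median of 0.495 over all genes tested. ACADVL, an enzyme of fatty acid oxidation, changed by -0.72 in shARNT and -0.33 in shBMAL1, ALDOA, a glycolytic enzyme, by -0.70 and -0.36, and the ribosomal protein gene RPS20 by -0.69 and -0.34. Of the hosts themselves SNHG5 lay nearest to this mean profile (0.124) and SNHG16 farthest from it (0.564).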

How the data were processed

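RNA from 3 biological replicates each of shControl, shBMAL1 and shARNT A498 cells was sequenced as stranded, paired-end mRNA libraries. The authors deposited total reads per gene, which are expected counts without normalization. Their methods name GRCh37, SeqMan NGen and ArrayStar, whereas the submitters' processing notes name hg38 and STAR, and this was not resolved. The annotation release, strand use and the treatment of mates and multiple alignments were not stated. A value of 0.05 stood for no reads and was set to 0, and the expected counts were rounded (720 to 787 fractional values per library, 0 of them in the 10 host genes). Rows of 45 repeated names were summed.

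All 9 libraries were fitted in edgeR 4.0.16 (R 4.3.3) with TMM, filterByExpr, the group as only factor and the quasi-likelihood F-test, with Benjamini-Hochberg adjustment over 15551 genes and calls at an adjusted p under 0.1. Every adjusted p in the text is from this test unless another setting is named. SEs are the log2 fold change over the square root of F. Alternatives were DESeq2 1.42.0, other scalings, filters and thresholds, halved counts, the 6 libraries compared, a replicate block and each library left out. Between replicates of a group the chi-square per gene was 2.12 to 2.45. Whether this exceeds sampling noise depends on whether both mates were counted, which was not stated. No replicates were merged. The fits were also run on simulated data in which few genes were changed. That setting differs from these data, so it does not bear on the choice of scaling.

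The members and gene lists were chosen with earlier results of these data known. The text names all 10 members, the snoRNAs within them, and from each other list some of the called genes with the smallest p, at most 2 rising and 2 falling per contrast. A further gene of this rule is not reported here. Head-to-head neighbours start within 1 kb in GENCODE release 44 lifted to GRCh37, and the 3 genes nearest in profile are named. Outside this rule, antisense genes with overlapping exons were taken from the same annotation. MEG8, SNHG9, GAS5-AS1 and the marker EPAS1 were named after their values were seen. Promoter sequences are from RefSeq (GRCh38.p14).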

Additional observations from a re-analysis of the deposited data

Results flagged for a closer look

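For 9 of the 10 host genes the direct contrast of shARNT with shBMAL1 showed a difference between the depletions (81.2% of all genes did so). Fitted on the 6 libraries of these groups alone, 9 were called as well. The log2 difference, shARNT minus shBMAL1, was -1.29 for SNHG8, -0.94 for ZFAS1, -0.66 for GAS5, -0.64 for SNHG6, -0.62 for SNHG15, -0.45 for SNHG5 and -0.25 for SNHG12, and it was 0.60 for SNHG16 and 0.41 for SNHG7. GAS5 and SNHG16 were called against shControl in shARNT and not in shBMAL1. SNHG7 had its fall in shBMAL1 and a log2 fold change of -0.18 in shARNT, which became 0.06 under library size alone. With 3 libraries per group, no search for outlying samples was made.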

How the results depend on the processing

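The number of host genes called was 9 in shARNT against shControl and lay between 8 and 9 under the alternatives. The count was 7 in shBMAL1 against shControl, 8 under library size alone and 2 when a change of at least 1.5-fold was also required. It was 9 in shARNT against shBMAL1, 8 under library size alone and 6 at 1.5-fold or more. Over all genes the calls were 12723, 9852 and 12630, and 8300, 3657 and 8176 at 1.5-fold or more. Leaving out each library in turn gave 8 to 9 host genes called in each contrast of shARNT and 7 in shBMAL1 against shControl. SNHG1 was not called on the TMM scale and its sign turned under several settings. In shARNT against shControl its log2 fold change was 0.23 under library size alone, where it was called (adjusted p = 0.0622), and lay between -0.0651 and 0.0432 with a library left out. In shBMAL1 against shControl it was 0.0464 under library size alone and lay between -0.104 and 0.14 with a library left out, highest without shBMAL1 replicate 3. In shARNT against shBMAL1 it was 0.0065 by DESeq2, 0.0068 with DESeq2-type size factors, 0.18 under library size alone, and lay between -0.149 and 0.0972 with a library left out. SNHG7 in shARNT against shControl became 0.0588 under library size alone.

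The replicate numbers did not pair the libraries, since the deviations of same-numbered libraries correlated between -0.0409 and 0.0752. With the replicate block 9, 7 and 9 host genes were called, no call of a host gene changed, and SNHG1 in shARNT against shBMAL1 was 0.0013.

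Sequencing depth limits the snoRNA rows, most of which had fewer than 20 counts per library, more than the host rows, which had at least 161. P-values measure the spread between libraries of a group, which are labelled as biological replicates. Whether these came from separate infections or cultures was not stated. No label separates hairpins against the same target, so effects of the hairpin itself and of the depletion cannot be told apart.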

Other observations

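GAS5-AS1, which lies antisense at the GAS5 locus and was singled out after its values were seen, had 25, 23 and 16 counts in shControl, 32, 17 and 13 in shBMAL1, and 5, 4 and 2 in shARNT. Its log2 fold change was -2.76 in shARNT (SE 0.515, adjusted p = 6.61e-05) and -0.09 in shBMAL1 (adjusted p = 0.855). Like GAS5 it was called in shARNT and not in shBMAL1, and at these counts reads from opposite strands of the locus cannot be told apart.

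SNHG9, a short host gene also named after its values were seen, stood at 0.928 CPM in shControl, at 1.17 CPM in shBMAL1, and at 0.479 CPM in shARNT. There was a log2 fold change of -0.95 in shARNT that passed the test and 0.33 in shBMAL1 that did not.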
